A study of Homo sapiens with 4 samples.

Results

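HOX genes encode homeodomain transcription factors that give cells along the body axis their position. They lie in 4 clusters, A, B, C and D, and genes at the same place in different clusters, called paralogs, carry the same number. In vertebrate embryos the genes with low numbers are switched on first and furthest towards the head, and those with high numbers later and towards the tail. In pluripotent cells the clusters are known as silent regions held by Polycomb repressive complexes, and the HOX proteins that are made later bind DNA together with cofactors of the PBX and MEIS families.

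The members were all genes whose annotated symbol is HOXA, HOXB, HOXC or HOXD followed by a number, without antisense genes. The reference annotation holds 39 such genes, and 29 of them, of 20041 named genes, had a probe under such a symbol in the platform annotation used here, with 36 of 47296 probes. All 10 genes of cluster B (chromosome 17), all 9 of cluster C (chromosome 12) and all 9 of cluster D (chromosome 2) were among them. Of the 11 genes of cluster A (chromosome 7) only HOXA2 was, and the other 10 were not analysed here. A single probe measured 24 of the genes, and 5 genes (HOXA2, HOXB3, HOXB6, HOXC4 and HOXC6) had 2 or more.

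RNA from human embryonic stem cells was measured on Illumina Expression BeadChips, with 1 array per condition and 4 in all. All cells were grown in E8, a defined medium for pluripotent cells, on matrigel. One culture received BMP4 over 6 days and served as the study's control for mesoderm (Mesoderm). The next was given nicotinamide, a form of vitamin B3, at 10 mM during 24 h (Nam), and another the ROCK inhibitor Y27632, at 10 µM during 24 h (Y27632, titled ROCKi in the labels). The last had no addition and is labelled 24 h (E8). The labels name the line H9 in one field and H1 in another, and they give no BMP4 dose. No array of cells kept for 6 days without BMP4 was analysed here, so that BMP4 and time in culture cannot be told apart. Without replicates no test was possible, and each difference below compares 2 arrays and not 2 conditions. In RNA from a whole culture, few cells with much of a transcript and many cells with little cannot be told apart either.

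Mean signal lay between 528.5 and 620.5 on the 4 arrays. Of the 20041 named genes, 10717 had a detected probe on the Mesoderm array, 10943 on Nam, 10330 on Y27632 and 10856 on E8, where detected means a deposited detection p-value of at most 0.01 against the negative controls. Cell markers were compared with the labels. The pluripotency list had 4 of 5 genes detected on Mesoderm (summed level 4387 on the unlogged normalized scale) and all 5 on each of Nam, Y27632 and E8 (21020 to 22240). Primitive streak genes had 4 of 6 detected on Mesoderm (8823), against at most 1 on each of the others (179.7 to 229.8), and lateral plate and cardiac mesoderm genes 7 of 10 (10130), against at most 2 (365.3 to 392.6). The endoderm list (5 of 5 on Mesoderm, summed level 3327, at most 1 and 135.7 to 173.3 elsewhere) and the amnion list (5 of 5, 14940, at most 3 and 299.2 to 340.9 elsewhere) moved the same way. HAND1 (12.53 on Mesoderm) and ISL1 (11.71) were the brightest genes of both the amnion list and the lateral plate and cardiac list. The higher sums of these lists are therefore not independent. The neural crest list was also higher, with 2 of 5 genes detected on Mesoderm and a summed level of 695.3, against at most 2 and 237.2 to 293.8 elsewhere. In it SNAI2 was at least 11-fold and SOX10 at least 1.9-fold higher on Mesoderm than on E8, and FOXD3 at least 2.68-fold lower, with PAX3 and TFAP2B not detected on any array. The endothelium list had 3 of 5 detected on Mesoderm (1480), against at most 3 elsewhere (346.7 to 402.5), with VWF 12.5-fold higher than on E8 and PECAM1 and CDH5 not detected on any array. The trophoblast list was lower on Mesoderm (649, against 1091 to 1444 elsewhere), with TFAP2C 3.09-fold lower than on E8 and GATA3 at least 1.97-fold higher. CDX2, CGA, ELF5 and KRT7 were not detected on any array. The lower sum thus rests on TFAP2C (8.72 on Mesoderm, 10.34 on E8). Also lower was the neuroectoderm and eye field list (1209, against 1849 to 4995). In it SIX6 was at least 49.2-fold, SOX21 at least 35.4-fold and SIX3 2.51-fold lower than on E8, and OTX2 3.22-fold higher. Of 5 blood genes, 0 were detected on any array. The part of these lists in the HOX differences was not tested. Of the paraxial mesoderm list only 1 of 6 genes was detected on Mesoderm, with TBX6, MSGN1, MEOX1 and PAX3 not detected on any array. Of the markers of hindbrain and spinal cord, where HOX genes are also active, 3 had a probe (OLIG2, NKX6-1 and LHX3), and 0 of these 3 was detected on any array.

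The first result is how little HOX signal there was. Of the 29 HOX genes, 7 were detected on the Mesoderm array (HOXA2, HOXB2, HOXB5, HOXB6, HOXC6, HOXC13 and HOXD3), 2 on Nam (HOXB6 and HOXC6), 0 on Y27632 and 2 on E8 (HOXB6 and HOXC13). Among all named genes the share with a detected probe was 53.5% on Mesoderm, 54.6% on Nam, 51.5% on Y27632 and 54.2% on E8. In all, 22 of the 29 HOX genes were detected on none of the 4 arrays. Of 144 combinations of a HOX probe and an array, 11 were detected, and 143 lay under a normalized level of 7 (log2). The one above it was HOXB2 on Mesoderm. A weak probe had to be brighter to be detected on Y27632, where the lowest detected value was 5.82, than on Mesoderm (5.63), Nam (5.54) or E8 (5.59).

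The detection p-value is the share of negative controls at least as bright as the probe, so it also ranks undetected probes. The median HOX probe had a detection p of 0.367 on Mesoderm, 0.372 on Nam, 0.542 on Y27632 and 0.469 on E8, whereas the median of the 30105 named probes had 0.0325, 0.0221, 0.039 and 0.0169 on the same arrays. Of the 36 HOX probes, 14 on Mesoderm, 15 on Nam, 19 on Y27632 and 17 on E8 were no brighter than the median negative control. The typical HOX probe thus lay in the middle of the negative controls on Y27632 and E8, and somewhat above it on Mesoderm and Nam.

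**Figure D1:**
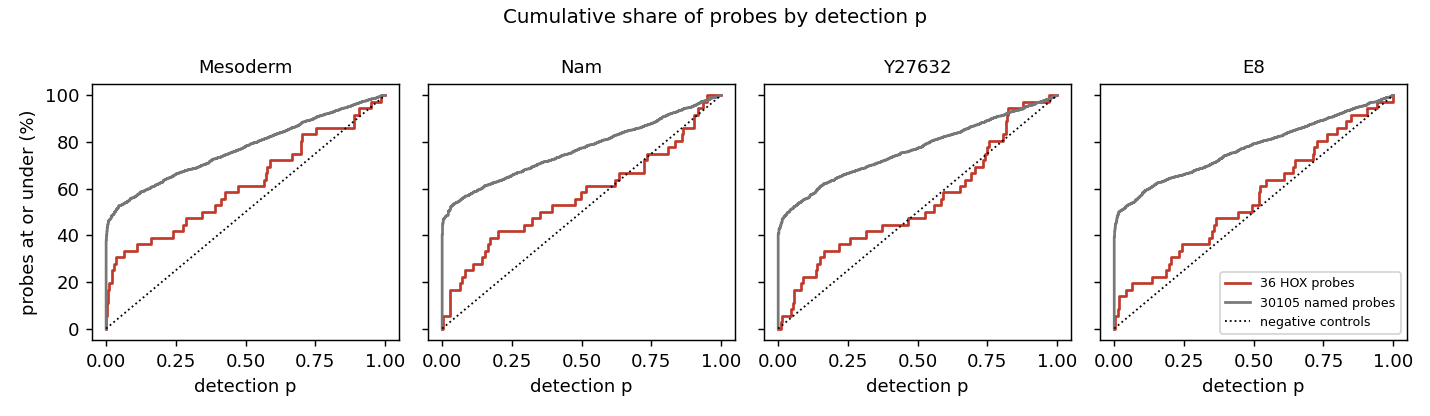
Cumulative share of probes (%) at or under each detection p-value, for the 36 HOX probes and the 30105 named probes on the Mesoderm, Nam, Y27632 and E8 arrays, with the diagonal that negative controls follow by construction. At a detection p of at most 0.05 the HOX line stands at 30.6% on Mesoderm, 16.7% on Nam, 8.33% on Y27632 and 16.7% on E8, below the line of named probes on each array.

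HOXB2, which patterns the hindbrain and its cranial nerves, was the one HOX gene with a clear signal. Its probe had a signal of 379.2 on the Mesoderm array, against 138.5 on Nam, 142.4 on Y27632 and 130.7 on E8. The normalized levels were 7.99 on Mesoderm, 4.91 on Nam, 4.89 on Y27632 and 4.6 on E8. No negative control was as bright on Mesoderm (detection p of 0), while on the other arrays the detection p lay between 0.152 and 0.545. The log2 difference between Mesoderm and E8 was 3.38, and since E8 did not detect the probe, HOXB2 was at least 5.28-fold higher on Mesoderm. For comparison, probes of one gene differed in this comparison by an SD of 0.42 over 3046 genes. That SD is between probes and does not measure the spread between arrays or cultures, and HOXB2 had 1 probe.

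HOXB5, a gene of the trunk that acts in the gut, lung and shoulder girdle, came second. Its signal was 224.6 on Mesoderm, 144.3 on Nam, 155.2 on Y27632 and 166.9 on E8, and it was detected on Mesoderm alone, with a detection p of 0. On E8 it narrowly missed detection at 0.013. The normalized levels were 6.63, 5.11, 5.31 and 5.49 on Mesoderm, Nam, Y27632 and E8, so that Mesoderm stood above the others by more than these differed among themselves. The difference between Mesoderm and E8 was 1.14, and as a bound HOXB5 was at least 2.06-fold higher. With the authors' normalized values it was 0.86, under 2-fold.

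Calls at 2-fold were made on the normalized values, also where one array did not detect the probe and the bound is smaller. HOXB2 and HOXB5 were the 2 of 29 HOX genes past 2-fold higher on Mesoderm than on E8, and 0 were past 2-fold lower. Over all 20041 named genes, taken like the 29 without a detection filter, 6.18% were past 2-fold higher and 6.69% lower, so the share of HOX genes is near that of all genes. Of the 6 HOX genes measured in this comparison (gene's probe detected on Mesoderm, E8 or both) the same 2 were higher, against 10.6% of 11649 measured genes higher and 11.4% lower. Of these 6, 4 were detected on Mesoderm and not on E8, and entered because they were bright on Mesoderm. The median difference was 0.06 over all 29 genes and 0.75 over the 6, against -0.01 and -0.02 over all genes under the same 2 rules.

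**Figure D2:**
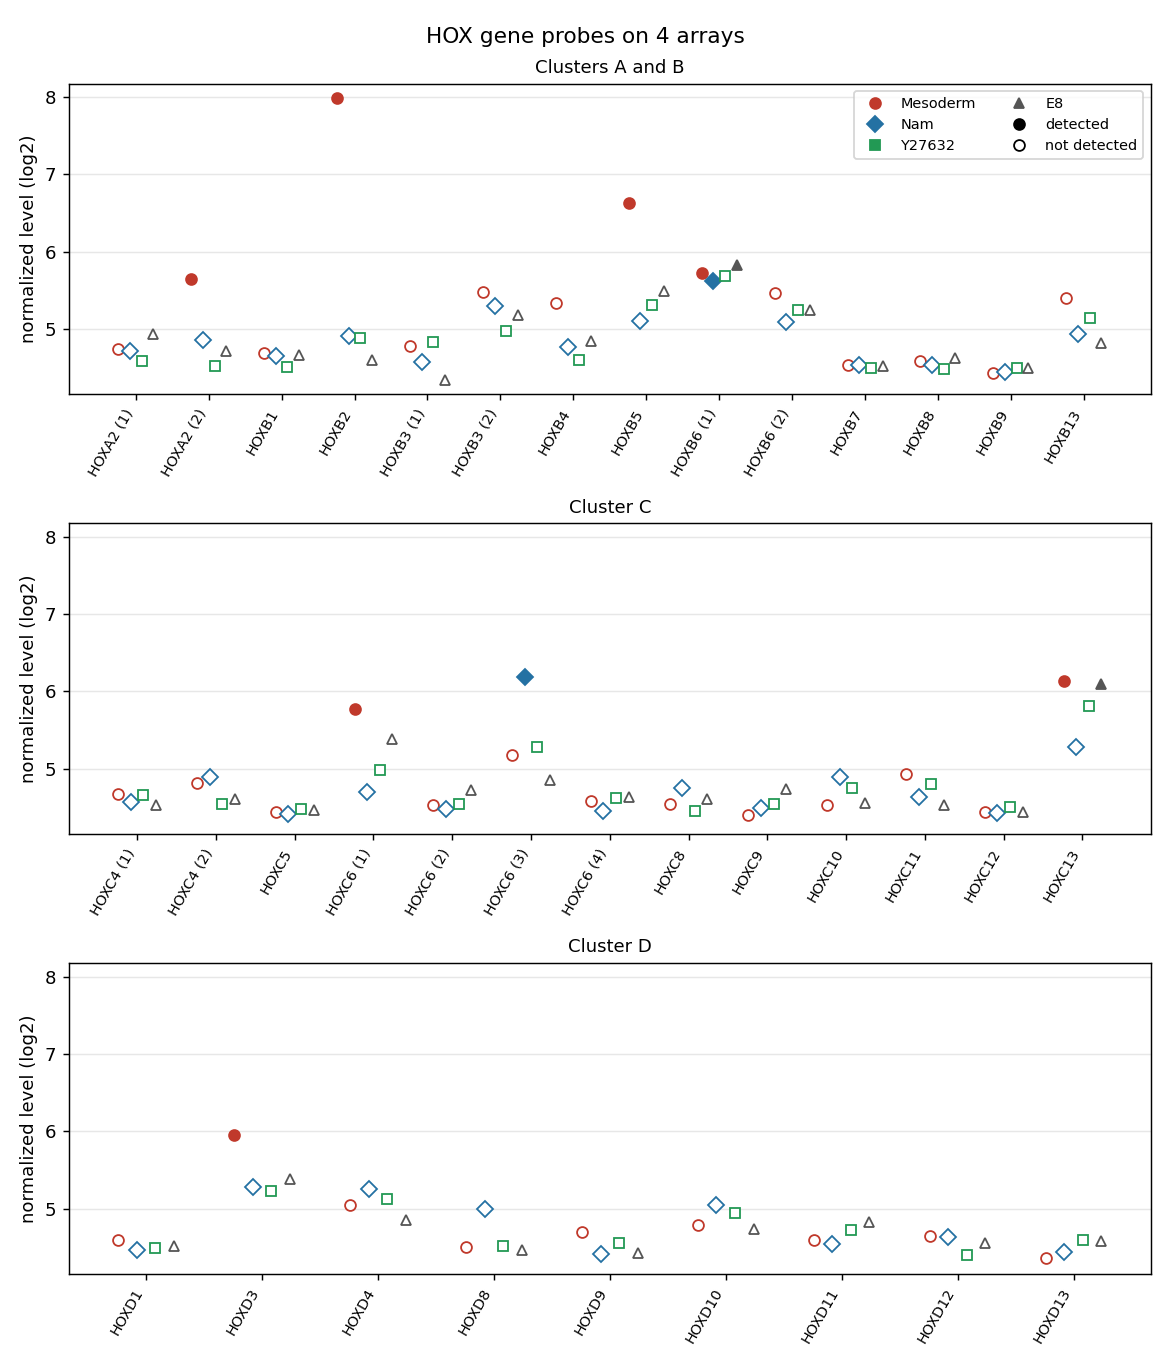
Normalized level (log2) of each of the 36 HOX probes on the Mesoderm, Nam, Y27632 and E8 arrays, by cluster and paralog number, with probes of one gene numbered in brackets. Filled symbols mark detected probes. HOXB2 on Mesoderm stands at 7.99 and HOXB5 at 6.63, and the other symbols lie between 4.34 and 6.19.

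The neighbours of these 2 genes in cluster B had weaker signals on Mesoderm. The reference annotation orders the cluster as HOXB1, HOXB2, HOXB3, HOXB4, HOXB5, HOXB6, HOXB7, HOXB8, HOXB9 and, after a gap, HOXB13. On Mesoderm the detection p was 0.413 for HOXB1, 0 for HOXB2, 0.0208 for the brighter probe of HOXB3, 0.0351 for HOXB4, 0 for HOXB5, 0.00779 for HOXB6, and 0.7, 0.577 and 0.908 for HOXB7, HOXB8 and HOXB9. At a looser threshold of 0.05, HOXB2 to HOXB6 would thus all be detected on Mesoderm, with none of the genes on either side of them up to HOXB9. HOXB3 meets it by 1 of its 2 probes, since the other had a detection p of 0.287. At that threshold 59.8% of all named genes had a detected probe on Mesoderm, 61.3% on Nam, 58.6% on Y27632 and 59.9% on E8. On E8 the genes of cluster B under that threshold were HOXB5 and HOXB6, on Y27632 the same 2, and on Nam HOXB3 and HOXB6. HOXB13, a gene of the prostate and hindgut, had a detection p of 0.0299 on Mesoderm, against 0.143 on Nam, 0.0831 on Y27632 and 0.234 on E8.

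From HOXB2 to HOXB6 the sizes differed. HOXB3 and HOXB4, which act in the hindbrain and in blood progenitors, reached 5.48 (brighter probe) and 5.33 on Mesoderm, against 5.18 and 4.84 on E8, which are differences of 0.30 and 0.49 between undetected values. HOXB6, known for limb and blood progenitors, was the only HOX gene detected on 3 arrays, and its probes differed in order. Its brighter probe had 5.72 on Mesoderm, 5.62 on Nam, 5.68 on Y27632 and 5.83 on E8, with Mesoderm within the range of the others. Its other probe, not detected on any array, was highest on Mesoderm, with 5.47 there, 5.09 on Nam, 5.25 on Y27632 and 5.24 on E8.

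**Figure D3:**
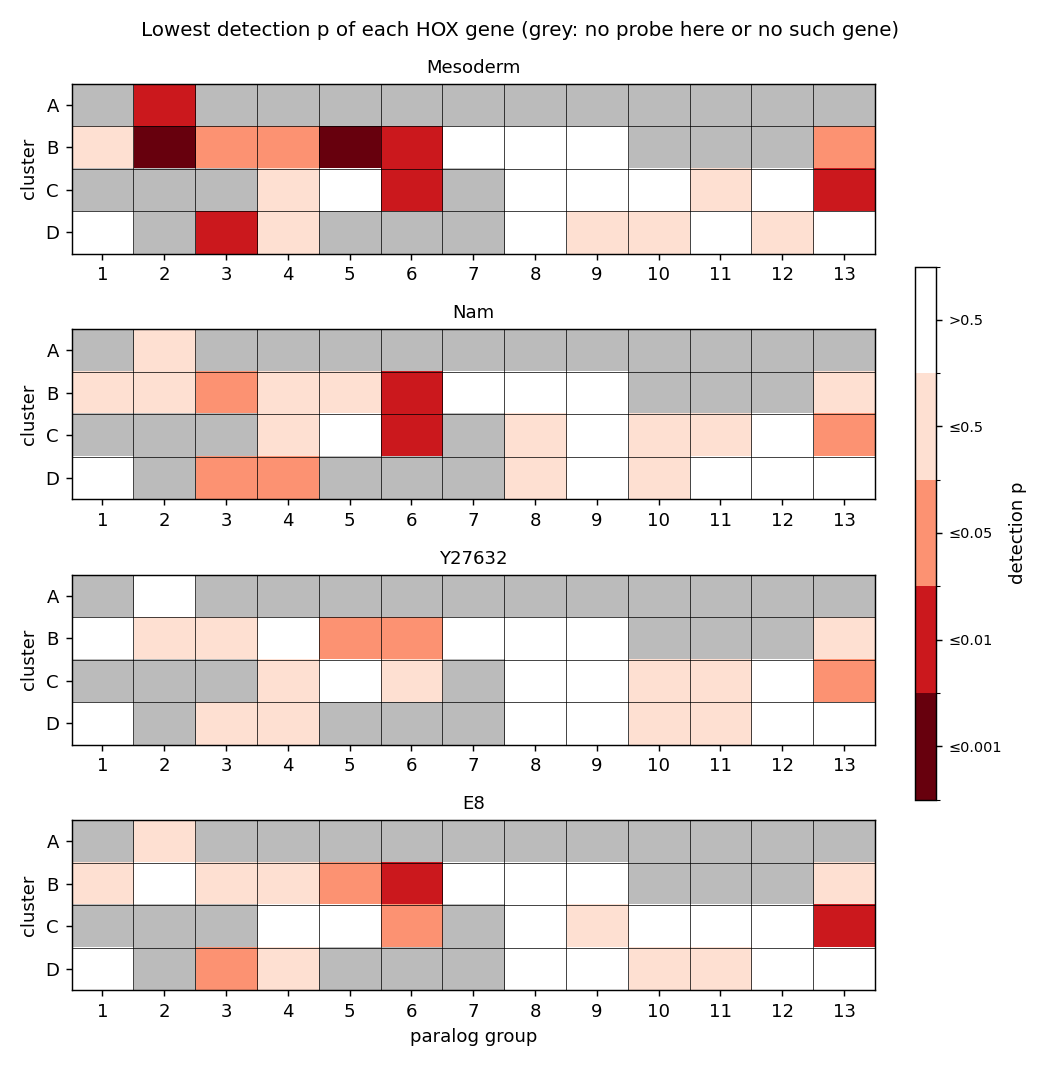
Lowest detection p-value of each HOX gene over its probes, by cluster (rows A to D) and paralog group (columns 1 to 13), for the Mesoderm, Nam, Y27632 and E8 arrays from top to bottom. Grey cells hold no gene or no probe used here. On Mesoderm the dark cells are HOXB2 and HOXB5, and the cells from HOXB2 to HOXB6 are all at or under 0.05.

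Outside cluster B, 4 genes were detected somewhere, at values close to the detection limit. HOXD3, an anterior gene of cluster D, had 5.95 on Mesoderm, where it was detected, and 5.28, 5.23 and 5.38 on Nam, Y27632 and E8, where it was not. The difference between Mesoderm and E8 was 0.57, with a bound of at least 1.29-fold. HOXA2, which patterns the second pharyngeal arch, was detected on Mesoderm by 1 of 2 probes, with 5.65 there, against 4.86 on Nam, 4.52 on Y27632 and 4.72 on E8. That probe differed by 0.93 between Mesoderm and E8, with a bound of at least 1.05-fold. The other HOXA2 probe differed by -0.19, and was not detected on any array.

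HOXC13, a gene of hair and nails at the far posterior end of cluster C, had nearly the same level on Mesoderm and E8. Its levels were 6.14 on Mesoderm, 5.28 on Nam, 5.81 on Y27632 and 6.09 on E8. It was detected on Mesoderm and E8, and it missed the threshold on Y27632 by little, with a detection p of 0.0104. Nam was the lowest array, with a difference from E8 of -0.80 and a bound of at least 1.46-fold lower. The difference of 0.06 between Mesoderm and E8 was -0.12 under median scaling.

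HOXC6, a gene of the thoracic region, was the one HOX gene past 2-fold between Nam and E8, and its 4 probes gave different answers. Probe 3 had 5.18 on Mesoderm, 6.19 on Nam, 5.28 on Y27632 and 4.86 on E8, and was detected on Nam alone. By this probe, the brightest on average, Nam exceeded E8 by 1.33, with a bound of at least 1.52-fold. Probe 1, which the platform annotation assigns to the same transcript, had 5.77 on Mesoderm, 4.7 on Nam, 4.98 on Y27632 and 5.39 on E8, and was detected on Mesoderm alone. By probe 1 Nam lay below E8, with a difference of -0.69. Probes 2 and 4, assigned to a second transcript, were not detected on any array and differed by -0.26 and -0.17 between Nam and E8. The mean of the 2 probes that were detected on some array differed by 0.32, and these 2 probes point in opposite directions. The genes HOXC4, HOXC5 and HOXC6 also share their upstream start in the reference annotation, and the probes were not placed on their transcripts here.

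**Figure D4:**
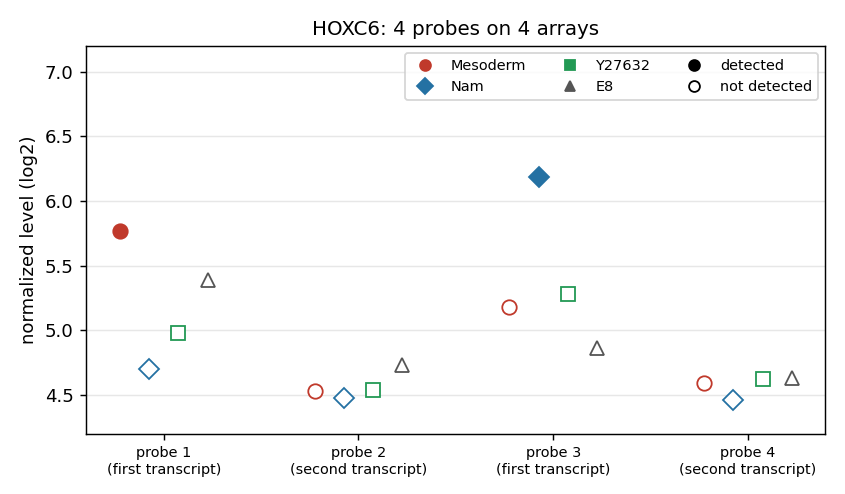
Normalized level (log2) of the 4 HOXC6 probes on the Mesoderm, Nam, Y27632 and E8 arrays. Probes 1 and 3 are assigned to the same transcript: probe 3 is highest on Nam (6.19) and probe 1 is lowest on Nam (4.7).

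In the comparisons without BMP4, HOX genes showed little else. Between Nam and E8, 3 HOX genes were measured (HOXB6, HOXC6 and HOXC13), of which 1, HOXC6, was past 2-fold higher on the normalized values (its bound is 1.52-fold) and 0 lower, and over all 29 the counts were the same. Over all named genes without a detection filter, 0.399% were higher and 0.893% lower, and among 11390 measured genes 0.694% and 1.56%. HOXB6 differed by -0.21. Between Y27632 and E8, 0 of 29 were past 2-fold in either direction, against 0.23% higher and 0.0948% lower of all named genes. Only 2 were measured, HOXB6 at -0.15 and HOXC13 at -0.27, against 0.228% higher and 0.182% lower of 10989 measured genes. Between Nam and Y27632, 0 of 29 were past 2-fold in either direction, against 0.354% higher and 0.729% lower of all named genes. Of the 2 measured there, HOXC6 differed by 0.91 and HOXB6 by -0.06, where 0.635% of 11173 measured genes were higher and 1.07% lower. The Nam and Y27632 differences from E8 share the E8 array.

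The 22 genes with no detected probe were HOXB1, HOXB3, HOXB4, HOXB7, HOXB8, HOXB9 and HOXB13 in cluster B, HOXC4, HOXC5, HOXC8, HOXC9, HOXC10, HOXC11 and HOXC12 in cluster C, and HOXD1, HOXD4, HOXD8, HOXD9, HOXD10, HOXD11, HOXD12 and HOXD13 in cluster D. Their 24 probes lay between 4.34 and 5.48 on all arrays. Between Mesoderm and E8 they differed by -0.34 (HOXC9) to 0.58 (HOXB13), between Nam and E8 by -0.28 (HOXD11) to 0.53 (HOXD8), and between Y27632 and E8 by -0.24 (HOXB4) to 0.49 (one of 2 HOXB3 probes). None was past 2-fold, and at this signal a difference was not detectable, which does not show that these transcripts are absent.

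By paralog group, detection on Mesoderm went from the anterior to the posterior end as 3 of 6 genes of groups 1 to 3 (HOXA2, HOXB2 and HOXD3), 3 of 11 genes of groups 4 to 8 (HOXB5, HOXB6 and HOXC6) and 1 of 12 genes of groups 9 to 13 (HOXC13). The median difference between Mesoderm and E8 over all probes of these groups, detected or not, was 0.37 for 8 anterior probes, 0.10 for 16 central probes and 0.03 for 12 posterior probes. The highest was HOXB2 (3.38) in the anterior, HOXB5 (1.14) in the central and HOXB13 (0.58) in the posterior groups. Of all named genes, 53.5% had a detected probe on Mesoderm, so the share in groups 1 to 3 is near that of all genes. In those groups HOXA2 was detected by 1 of its 2 probes. The counts by paralog group are small, rest on 1 array and leave out most of cluster A. An order along the clusters was not tested.

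Promoter windows of members were set beside those of all named genes. RefSeq windows (GRCh38.p14) were matched for 12 of the 29 genes, HOXA2, HOXB1, HOXC4, HOXC5, HOXD1, HOXD3, HOXD4, HOXD8, HOXD10, HOXD11, HOXD12 and HOXD13, with HOXC4 and HOXC5 listed under the same window. HOXB2 and HOXB5, the genes past 2-fold between Mesoderm and E8, had no window. Over the 250 bases before the start the median was 18.5 CpG dinucleotides for these HOX genes (4 to 31), against 17 for 15032 named genes, with a median GC content of 58.2% and 62.4%. HOX and PBX proteins are known to bind together to sites of the form TGATNNAT, first described in the mouse at Hoxb1, the gene's own target. A match to TGATNNAT on either strand was found in 3 of the 12 HOX windows (HOXA2, HOXB1 and HOXD11, 25%), and in 4.49% of the 15032 windows. The 3 windows printed are those of HOXA2 and HOXD3, detected on Mesoderm, and of HOXB1, which lies next to HOXB2 and was not detected. They run 5′ to 3′ on the gene's strand, up to the base before the start, with matches in capitals. HOXA2 is on the minus strand at chr7:27102684-27102933, HOXD3 on the plus strand at chr2:176157057-176157306 and HOXB1 on the minus strand at chr17:48531012-48531261.
HOXA2: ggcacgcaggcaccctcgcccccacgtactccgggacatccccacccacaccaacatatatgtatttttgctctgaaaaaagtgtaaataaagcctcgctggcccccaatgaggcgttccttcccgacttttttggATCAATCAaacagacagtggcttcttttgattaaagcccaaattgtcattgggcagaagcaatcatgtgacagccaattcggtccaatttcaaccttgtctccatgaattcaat
HOXD3: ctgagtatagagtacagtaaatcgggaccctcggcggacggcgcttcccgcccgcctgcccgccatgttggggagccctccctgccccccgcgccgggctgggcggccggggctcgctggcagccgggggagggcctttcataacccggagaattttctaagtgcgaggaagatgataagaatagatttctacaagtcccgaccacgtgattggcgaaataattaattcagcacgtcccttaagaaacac
HOXB1: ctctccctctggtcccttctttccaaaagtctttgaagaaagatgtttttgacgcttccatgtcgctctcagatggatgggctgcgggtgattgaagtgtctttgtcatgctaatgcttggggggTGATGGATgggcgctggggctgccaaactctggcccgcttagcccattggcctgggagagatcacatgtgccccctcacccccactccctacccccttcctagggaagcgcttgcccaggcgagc
HOXA2 and HOXB1 each hold 1 match and 8 and 7 CpG dinucleotides, and HOXD3 holds 0 matches and 21. A match is a run of letters and no measured site. Of the 3 genes with a match 1 (HOXA2) was detected on any array, and of the 9 without a match 1 (HOXD3).

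The partners of HOX proteins were detected on at least 1 array for all 8 TALE cofactor genes (PBX, MEIS and PKNOX) with a probe, and several differed between Mesoderm and E8. Of the 8, 7 were measured, with 3 past 2-fold higher, 1 lower and a median of 0.96, where 10.6% of 11649 measured genes were higher and 11.4% lower. MEIS2 had 10.18 on Mesoderm, against 4.63 on Nam, 4.48 on Y27632 and 4.83 on E8, and was at least 24.1-fold higher than on E8 by its brighter probe, with a difference of 5.34 for that probe and 1.51 for the other. MEIS1 had 8.25 on Mesoderm, 5.63 on Nam, 5.29 on Y27632 and 5.62 on E8, a difference from E8 of 2.62. PBX3 was lower, with 9.34 on Mesoderm, 9.79 on Nam, 10.8 on Y27632 and 10.6 on E8. PKNOX1 differed by -0.13 between Mesoderm and E8. The direction was the same for these 4 genes under each of the 4 other ways of scaling.

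Factors that switch HOX clusters on gave a mixed picture. CDX1 and CDX2, caudal homeobox proteins that activate central HOX genes, were not detected on any array, nor were EVX1 and EVX2, which flank clusters A and D. CDX4, the third caudal gene, was detected on the 3 arrays without BMP4, with 6.77 on Nam, 6.27 on Y27632 and 6.53 on E8, and not on Mesoderm (4.62), where it was at least 1.88-fold lower than on E8 (difference -1.91, and -0.61 without background correction). Of the 5 measured genes of this list 0 were past 2-fold higher on the normalized values and 1, CDX4, lower, with a bound short of 2-fold (median 0.31). NR6A1 and GDF11, which act on the trunk to tail transition, differed by 0.57 and 0.37, and LIN28A by -0.82. The GDF11 value is that of its brighter probe. Its other probe, also detected on all arrays, differed by 1.05, past 2-fold. NR6A1 was not detected on E8, with a bound of at least 1.26-fold. Among all 11649 measured genes, 10.6% were past 2-fold higher between Mesoderm and E8 and 11.4% lower. The retinoic acid list, whose signal activates anterior HOX genes, had 4 of 10 measured genes past 2-fold higher on the normalized values and 0 lower (median 0.57). The number higher was 3 under median scaling and with an offset of 50, and 2 without background correction. One of the 4, the receptor gene RXRG, was not detected on E8, with a difference of 1.23 and a bound of at least 1.27-fold. The highest was CYP26A1, the enzyme that breaks retinoic acid down, with 12.71 on Mesoderm, 7.72 on Nam, 7.25 on Y27632 and 7.69 on E8 and differences from E8 of 5.02, 5.14 and 2.49 by its 3 probes, of which the last 2 did not detect it on E8. It was followed by CRABP2, which carries retinoic acid to its receptors (1.86), and the lowest were ALDH1A1 (-0.30) and RXRA (-0.24). The dimmer ALDH1A1 probe differed by -1.09, and both probes of this gene were detected on E8 and not on Mesoderm. ALDH1A3, an enzyme gene of this list named beyond the rule for named genes, was also among the 4. It had 9.71 on Mesoderm and 8.53 on E8, a difference of 1.18, and its other probe differed by 0.96. The receptor gene RARB, itself a target of retinoic acid, and the enzyme gene ALDH1A2 were not detected on any array.

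Polycomb genes, whose products hold HOX clusters silent, were detected for 19 of 19 genes with a probe on Mesoderm and on Nam, and for 17 on Y27632 and on E8. All 19 were measured between Mesoderm and E8, with 3 past 2-fold higher on the normalized values, 4 lower and a median of 0.13. One of the 3, PHC2, was not detected on E8, with a difference of 1.11 and a bound of at least 1.42-fold. BMI1 and PHF1 were highest (1.92 and 1.44), and JARID2, which recruits the complex with histone methyltransferase activity, and PHC1 lowest (-2.05 and -2.01). That complex's catalytic subunit EZH2 differed by -0.53, by its brightest of 3 probes. EZH2 is named beyond the rule for named genes. Of the 8 measured genes of trithorax and histone demethylation, which work in the opposite sense, 0 were higher and 2 lower (RBBP5 at -1.13 and WDR5 at -1.01), with ASH2L (0.61) and DPY30 (0.30) highest. None of these 8 passed 2-fold with the authors' values, an offset of 50 or no background correction. GMNN (geminin), which restrains HOX proteins, differed by -0.34. For comparison, 10.6% of 11649 measured genes were past 2-fold higher between Mesoderm and E8 and 11.4% lower.

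**Figure D5:**
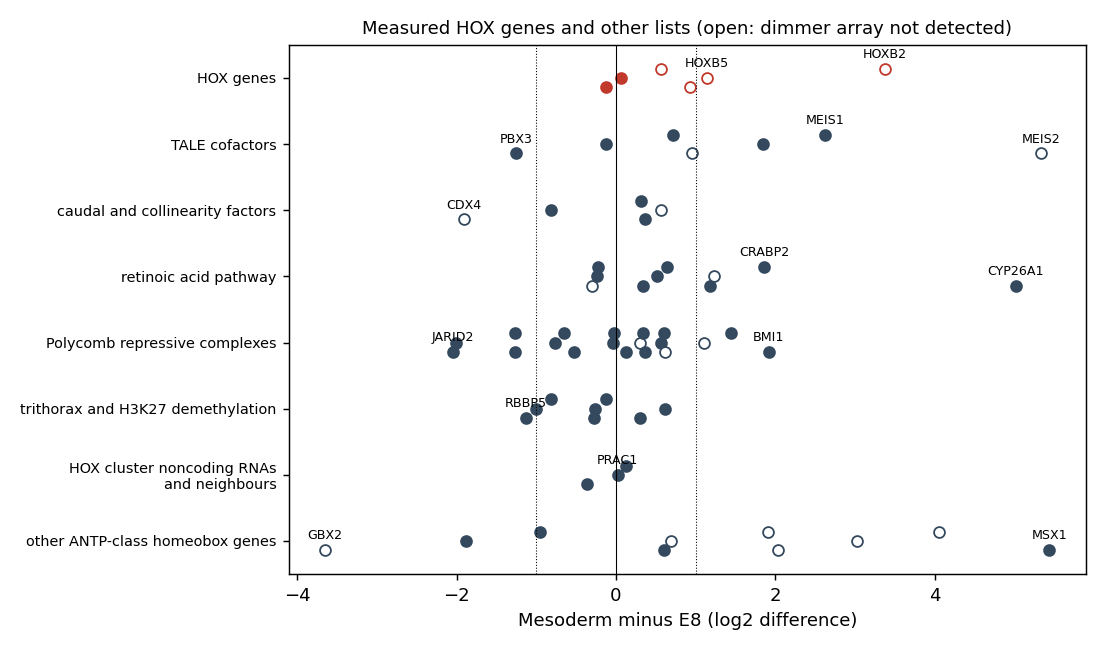
Log2 difference between the Mesoderm and E8 arrays for each measured gene, for HOX genes in the top row and 7 other lists below. Open circles are genes detected on 1 of the 2 arrays, and dotted lines mark 2-fold. HOXB2 (3.38) stands apart from the other HOX genes, and MEIS2 (5.34), CYP26A1 (5.02) and MSX1 (5.44) lie at the right edge.

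Other homeobox genes of the same ANTP class were detected on Mesoderm for 9 of 20 genes, against 7 of 29 HOX genes and 53.5% of all named genes. Of the 10 measured between Mesoderm and E8, 5 were past 2-fold higher and 2 lower (median 1.30), against 10.6% and 11.4% of all measured genes. MSX1 and MSX2, targets of BMP signalling, were higher on Mesoderm. MSX1 differed by 5.44, and MSX2, not detected on E8, was at least 10.1-fold higher. GBX2, a gene of the midbrain and hindbrain border, was not detected on Mesoderm and was at least 5.98-fold lower there than on E8, and VENTX differed by -1.88.

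Transcripts encoded between the HOX genes were not silent everywhere. PRAC1, which lies between HOXB9 and HOXB13 and encodes a small nuclear protein, was detected on all arrays by both probes, with 10.47 on Mesoderm, 10.09 on Nam, 10.35 on Y27632 and 10.44 on E8 by its brighter probe. Its other probe gave 10.47, 9.92, 10.17 and 10.2 in the same order. HOXB9 and HOXB13 on either side were not detected on any array. PRAC2, next to PRAC1, had 5.7 on Mesoderm, 5.59 on Nam, 5.58 on Y27632 and 6.07 on E8. HOTTIP, a noncoding RNA at the posterior end of cluster A, was near the detection limit, with 5.89 on Mesoderm, 5.26 on Nam, 6.04 on Y27632 and 5.76 on E8. Its difference of 0.13 between Mesoderm and E8 was -0.01 under median scaling, and that of PRAC1 0.02 and -0.13. HOTAIR, HOXA11-AS and the genes of the microRNAs MIR10A, MIR10B, MIR196A1, MIR196A2 and MIR196B had probes that were not detected on any array. Of the 3 genes measured between Mesoderm and E8 (PRAC1, PRAC2 and HOTTIP), 0 were past 2-fold.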

How the data were processed

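Total RNA was labelled as biotin-cRNA with the TargetAmp-Nano kit, per the labels' protocols. The authors' deposited table of non-normalized values lists every probe's signal intensity, with its detection p-value beside it, per the file headers. The p-values move in steps that correspond to 770 negative controls. A second deposited table is on a log2 scale and was normalized by the authors. The method is not given in the sources used here. Medians of its columns are 5.577 and 5.578, genes are not centred, and 0 cells differ from the series matrix.

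From the signals, limma 3.58.1 in R 4.3.3 (neqc) estimated the background with the help of the detection p-values, and then applied quantile normalization to the 4 arrays after an offset of 16, with log2 taken last. The offset makes differences of dim genes smaller than the true ones. The steps were tested on simulated data, with changes set in bright probes only. No HOX probe was as bright on average over the 4 arrays. The simulation therefore does not show how well changes at HOX signal levels are recovered. Of 47296 probes, 30105 had 1 symbol, 8 several and 17183 were unnamed here (platform annotation, updated by gene identifier, 0 changed). A gene was represented by its brightest probe among those detected on at least 1 array, and was measured in a comparison when either array detected that probe. It was called at 2-fold on the normalized values. For a probe below detection on one array, the fold is a bound, written as at least N-fold: its value there was replaced by the lowest detected value of that array if this was higher. Summed levels add unlogged normalized values of each gene's brightest probe.

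Samples were grouped by title, with 1 array per group, so no p-value is given and the number of arrays limits the precision. HOX genes with a detected probe are named, the others listed by cluster, and of each other list the 2 highest and 2 lowest genes in the Mesoderm and E8 comparison, besides genes defining a list. The members and lists were chosen with earlier results of these data known. The alternatives were median scaling, no background correction, an offset of 50, the authors' values, other detection rules and the mean of probes. Promoter sequences are from RefSeq, assembly GRCh38.p14.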

Additional observations from a re-analysis of the deposited data

How the results depend on the processing

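Of 207 values recomputed under the alternatives, 171 moved by less than the SD between probes of one gene (counts: by at most 1.5 times) and 36 by more, and 0 called values changed sign. A change of detection rule alone leaves the difference of a gene with 1 probe as it was. Part of the 171 could therefore not move. The number of HOX genes past 2-fold higher on Mesoderm than on E8 was 2, and it was 1 (HOXB2) without background correction, with an offset of 50 and with the authors' values, and 0 when both arrays had to detect the gene, which leaves HOXB2 and HOXB5 out. HOXB2 itself differed by 1.39 to 3.38 and HOXB5 by 0.38 to 1.14, with the low ends without background correction, which by construction shrinks differences of dim probes. HOXC6 between Nam and E8 ran from 0.32 (mean of its detected probes) to 1.33, and the count of 1 higher gene there became 0 without background correction, with an offset of 50, at a detection p of at most 0.001, with detection on both arrays and with the mean of probes. The median between Mesoderm and E8 (0.75 over 6 genes) was 0.21 without background correction, 2.26 at a detection p of at most 0.001 (2 genes), 0.06 with no filter and -0.03 with detection on both arrays (2 genes). The median between Nam and Y27632 (0.42 over 2 genes) was 0.12 without background correction, 0.04 at a detection p of at most 0.05, 0.04 with no filter and 0.13 with the mean of probes. At a detection p of at most 0.05 the detected HOX genes numbered 10 on Mesoderm, 6 on Nam, 3 on Y27632 and 5 on E8, and at 0.001 they numbered 2, 0, 0 and 0. Median scaling moved the median of all measured genes to -0.19 for Mesoderm, -0.15 for Nam and -0.16 for Y27632, each against E8, where quantile normalization gave -0.02, 0.04 and 0.01. Of the other lists, counts past 2-fold between Mesoderm and E8 differed by at most 2 genes in either direction under the other scalings. No paired analysis was possible because each condition has 1 array, which also leaves no array to leave out. Signal over background is the limit for all members except HOXB2.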
